A study of Mus musculus with 24 samples.

Results

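The 3 transgenic mouse lines were set together against their shared non-transgenic controls, and the changes that had one sign in all 3 lines were ordered by size. All 24 arrays of the series entered the comparison, each of 1 heart RNA sample from mice at 90 days of age, with 6 biological replicates per genotype. Controls were non-transgenic mice (NTG). The other genotypes carried a human cDNA driven in cardiac myocytes by the alpha-myosin heavy chain promoter. It encoded the Arg389 form (ARG) or the Gly389 form (GLY) of the beta1-adrenergic receptor, or AC5, the usual short name of type 5 adenylyl cyclase. The labels give no strain, sex or number of founder lines, so an effect of the transgene and one of its insertion site cannot be told apart in any single line. Of 45101 probe sets on the array, 45037 were compared after 64 Affymetrix controls were set aside, and 34945 of them carried 1 gene symbol (18193 genes). Each value was a ratio to the NTG level, near 1 in NTG hearts, and changes are given as log2 of that ratio. Ratios say how a transcript moved and not how abundant it was, so no level is compared between genes.

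The beta1-adrenergic receptor is the main receptor for noradrenaline on heart muscle cells. It acts through the stimulatory G protein on adenylyl cyclases, of which type 5 is a major cardiac form, and the cyclic AMP they make activates protein kinase A, which raises contraction and heart rate. The Arg389 form couples to adenylyl cyclase more strongly than the Gly389 form. The receptor lines thus enter 1 pathway at the same step and AC5 at a later one. All changes shared by the 3 lines stand against the same 6 NTG hearts. The adult heart draws most of its energy from mitochondrial oxidation of fatty acids, with branched-chain amino acids as a further fuel. Cells that sense amino acid shortage, unfolded protein or mitochondrial stress raise the transcription factor ATF4, whose targets include enzymes of asparagine, serine and one-carbon metabolism.

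The arrays were alike in overall level, with medians of log2 values from -0.05 to 0.09. In NTG the replicates 1 to 3 and 4 to 6 were each centred near 1, which points to 2 sets that no label names, so values within each set are given beside the main results. GLY replicates 1 and 3 and ARG replicate 1 stood apart from their groups, with limma array weights of 0.354, 0.312 and 0.478, where NTG weights ran from 1.10 to 2.02. A check of the receptor transgenes is not given here. Adcy5, the mouse gene of type 5 adenylyl cyclase, had lowest, median and highest ratios of 0.934, 0.992 and 1.10 in NTG, 0.820, 1.01 and 1.38 in ARG, 0.750, 0.951 and 1.04 in GLY and 1.24, 1.32 and 1.46 in AC5 (probe set 1439829_at). All 6 AC5 hearts thus lay above all 6 NTG hearts, with a change of 0.41 ± 0.09 in AC5 (adjusted p = 0.0813), and how far this mouse probe set reads the human transcript was not tested. In the mean of the lines the 4 Adcy5 probe sets stood at 0.11, 0.13, 0.08 and -0.11, and none was called. Myh6, whose promoter drives the transgenes, stood at -0.29 ± 0.16 (adjusted p = 0.39) in the mean of the lines at probe set 1417729_at. At its other probe set, 1448826_at, it stood at -0.052 ± 0.045 (adjusted p = 0.629). None of 11 cardiomyocyte markers was called, and cardiomyocyte, atrial and skeletal muscle markers had median changes of -0.02, 0.06 and -0.03. The deposited 3′ and 5′ controls of Tfrc differed by a log2 median of -0.122 in NTG, -0.209 in ARG, -0.255 in GLY and -0.267 in AC5, while for Gapdh the 4 medians lay between -0.010 and 0.009. For Actb they moved the other way, with 0.007 in NTG, 0.069 in ARG, 0.096 in GLY and 0.107 in AC5. Those of Pcx were -0.018, -0.059, -0.094 and -0.053 in NTG, ARG, GLY and AC5. The part of RNA quality in the results was not tested.

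Ranked by the smallest of the 3 line changes, the shared rises were led by Asns, of asparagine synthesis, Mt2, a metallothionein, and Aldh18a1, of proline synthesis, and the shared falls by Hspa8, a heat shock protein, Ndufab1, the mitochondrial acyl carrier protein, and Hnrnpa2b1, which binds RNA. Hspa8 fell at only 1 of its 4 probe sets and Ndufab1 at only 1 of 5. Of the gene lists, branched-chain amino acid breakdown (14 of 17) and fatty acid uptake and oxidation (19 of 29) had the largest shares of falling members. Lists and members were chosen with earlier results of these data known, so all list shares here are a description. The mean of the ARG, GLY and AC5 group means differed from NTG at 2551 probe sets, 5.66% of those tested (limma, Benjamini-Hochberg adjusted p under 0.05, which is what called means here). Changes are given with the standard error of the fit (n = 6 hearts per genotype). Of these 837 rose (1.86% of all) and 1714 fell (3.81%), for 513 and 1243 named genes. At least 1.5-fold changes made up 382 of them, 101 rises and 281 falls. One sign in all 3 lines was found for 2490 of the 2551, or 97.6% (5.53% of all probe sets), 795 rises and 1695 falls. A mean past its threshold tends to have one sign by construction, and because the lines share the NTG arrays, 54.9% of all probe sets had one sign, called or not. Of the 10 leading rises and 10 leading falls, only Cblb and Ndufab1 were called in each line on its own at the probe set ranked. Asns and Aldh18a1 were not called in GLY (limma adjusted p = 0.101 and 0.0687), nor Mt2 in AC5 (0.464). Among these falls only Ndufab1 was called in AC5. All 2551 kept their direction within replicates 1 to 3 and within replicates 4 to 6, where 748 and 386 of them were called, out of 862 and 431 calls in all. Both sets enter the mean that called these probe sets, so a kept direction is favoured by construction and is no replication. Of 45 called results for named genes, 32 were called in replicates 1 to 3 alone and 22 in replicates 4 to 6 alone, sets with fewer arrays. Those not called in replicates 1 to 3 alone were Mt2, Nbeal1, Myc, Cacna2d1, Kcnv2, Pgam1, Gabpa, Klf9, Ccl8, Ifi27l2a, Mef2a, Fcgr3 and Cd79b. Those not called in replicates 4 to 6 alone were Aldh18a1, Phgdh, Atf5, Heg1, Hspa8, Fabp4, Hnrnpdl, Neat1, Iigp1, Nfkbiz, Fubp1, Pkia, Acta1, Acot1, Suclg2, Gabpa, Sdf2l1, Klf9, Cavin4, Mef2a, Fcgr3, Gsn and Cd79b. Without NTG replicate 3 the count was 1688. Left out together, the 3 arrays of low weight gave 3497 calls, 38.9% of them rises against 32.8% with all arrays.

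**Figure D1:**
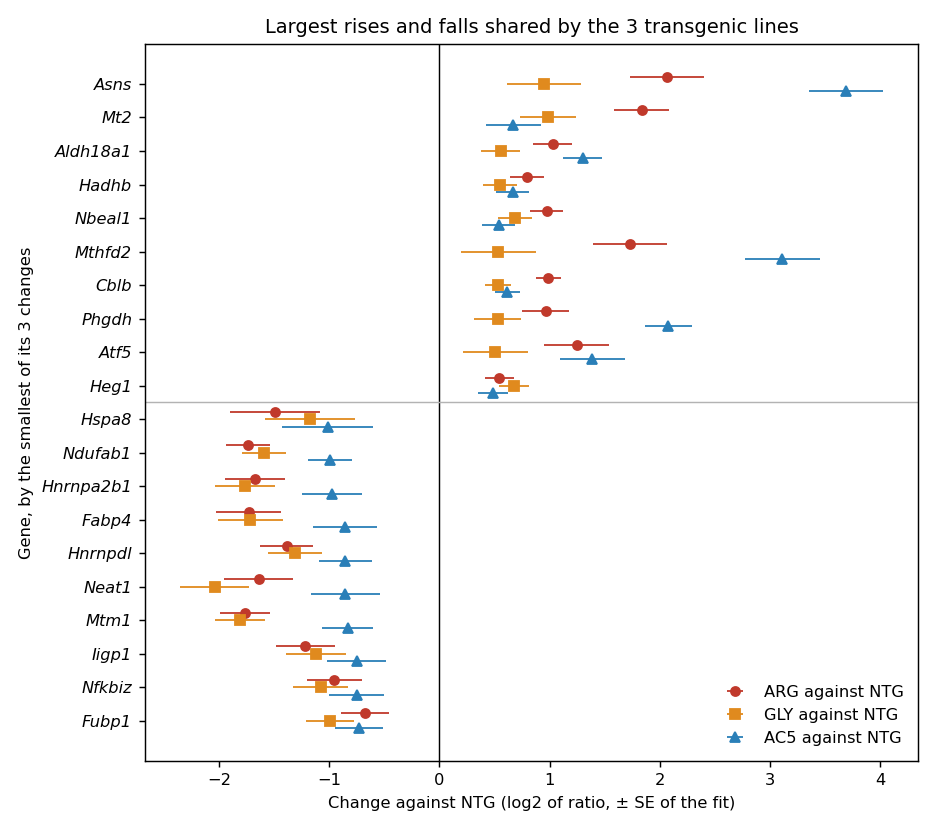
Changes against NTG on the log2 scale (x axis, with the standard error of the fit) for the 10 genes with the largest shared rises and the 10 with the largest shared falls (y axis), with circles for ARG, squares for GLY and triangles for AC5, 6 hearts per genotype. AC5 lies farthest from 0 for Asns, Mthfd2, Phgdh, Aldh18a1 and Atf5 among the rises, and closer to 0 than both receptor lines for most of the falls.

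Genes of asparagine, serine and one-carbon synthesis were among the 10 leading rises, and at Asns, Phgdh and Mthfd2 AC5 exceeded both receptor lines by test. Asns makes asparagine from aspartate. Its ratios were 0.703, 1.03 and 1.13 in NTG, 2.23, 3.05 and 4.73 in ARG, 1.26, 1.58 and 2.43 in GLY and 2.69, 7.84 and 13.03 in AC5 (lowest, median and highest of 6 hearts, probe set 1451095_at). All 18 transgenic hearts lay above all 6 NTG hearts, with the GLY hearts closest to the controls. The mean of the lines was 1.80 ± 0.20 (adjusted p = 3.53e-06), a 3.47-fold rise, with 1.67 ± 0.25 in ARG, 0.79 ± 0.25 in GLY and 2.92 ± 0.25 in AC5. At the other Asns probe set, 1433966_x_at, the mean was 2.24 ± 0.27 and 17 of the 18 transgenic hearts lay above the highest NTG heart. The 3 lines differed from one another at both (F test without NTG arrays, adjusted p = 2.3e-05 and 3.68e-05). In GLY on its own Asns was called at neither (limma adjusted p = 0.0632 and 0.101).

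Phgdh, the first enzyme of serine synthesis, had ratios of 0.937, 1.01 and 1.08 in NTG, 1.65, 1.90 and 2.56 in ARG, 1.25, 1.36 and 1.93 in GLY and 1.51, 5.13 and 5.91 in AC5 (probe set 1454714_x_at), with no overlap between transgenic and NTG hearts. Its mean change was 1.19 ± 0.18 (adjusted p = 9.04e-05), with 0.97 ± 0.21 in ARG, 0.53 ± 0.21 in GLY and 2.08 ± 0.21 in AC5, and all 4 Phgdh probe sets rose. Mthfd2, a mitochondrial folate enzyme of one-carbon metabolism, had ratios of 0.858, 1.08 and 1.20 in NTG, 1.99, 3.72 and 6.12 in ARG, 0.695, 1.46 and 3.75 in GLY and 3.32, 9.14 and 19.98 in AC5 (probe set 1419254_at). Every ARG and AC5 heart lay above the highest NTG heart, but only 4 of 6 GLY hearts did, and 1 GLY heart lay below the lowest. The mean of the lines was 1.79 ± 0.28 (adjusted p = 0.000165), and the lines differed (adjusted p = 9.19e-05). Aldh18a1, an enzyme of proline synthesis, rose at all 5 of its probe sets, by 0.96 ± 0.15 (adjusted p = 0.000132) at 1437325_x_at, with 1.03 ± 0.18 in ARG, 0.56 ± 0.18 in GLY and 1.30 ± 0.18 in AC5. In GLY on its own Phgdh, Mthfd2 and Aldh18a1 were not called at these probe sets (limma adjusted p = 0.165, 0.425 and 0.0687). AC5 replicate 4 was the lowest AC5 heart for Asns, Phgdh and Mthfd2. Leaving it out gave means of 1.89 for Asns, 1.29 for Phgdh and 1.89 for Mthfd2. Phgdh was not called in replicates 4 to 6 alone, where its change was 1.01 against 1.37 in replicates 1 to 3, and neither was Aldh18a1 (0.90 and 1.02).

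Proteins of the ATF4 and C/EBP families bind a composite element with the core TGATGNAA, so RefSeq promoter windows of 300 bases (250 before to 50 after the start, GRCm38.p6; the array files name no build) were searched for these 8 letters (N is any base) on both strands. A match was found in 3.97% of all 32851 windows, and at 4.51% of genes with a window. Of 9 rising genes of the serine, asparagine and ATF4 target list 8 had a window, and Asns, Chac1, Trib3 and Nupr1 held a match, while 7 of the 23 list members with a window did. The windows of Asns at chr6:7693160-7693459 (minus strand), Chac1 at chr2:119350992-119351291 (plus strand), Phgdh at chr3:98339920-98340219 (minus strand) and Mthfd2 at chr6:83317555-83317854 (minus strand) are shown as examples of rising genes with and without the letters, 5′ to 3′ on the gene's strand, with matches in capitals.
Asns: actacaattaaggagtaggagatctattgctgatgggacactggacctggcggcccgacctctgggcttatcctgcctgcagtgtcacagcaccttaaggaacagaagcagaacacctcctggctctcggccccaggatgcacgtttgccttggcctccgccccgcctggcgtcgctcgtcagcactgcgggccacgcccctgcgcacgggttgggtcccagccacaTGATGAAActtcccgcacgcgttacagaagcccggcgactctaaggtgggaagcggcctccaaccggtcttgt
Chac1: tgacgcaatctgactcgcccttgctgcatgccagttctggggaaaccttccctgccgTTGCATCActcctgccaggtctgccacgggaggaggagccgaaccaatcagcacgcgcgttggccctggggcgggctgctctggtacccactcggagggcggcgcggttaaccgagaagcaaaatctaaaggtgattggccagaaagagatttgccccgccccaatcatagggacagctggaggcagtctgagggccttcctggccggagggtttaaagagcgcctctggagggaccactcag
Phgdh: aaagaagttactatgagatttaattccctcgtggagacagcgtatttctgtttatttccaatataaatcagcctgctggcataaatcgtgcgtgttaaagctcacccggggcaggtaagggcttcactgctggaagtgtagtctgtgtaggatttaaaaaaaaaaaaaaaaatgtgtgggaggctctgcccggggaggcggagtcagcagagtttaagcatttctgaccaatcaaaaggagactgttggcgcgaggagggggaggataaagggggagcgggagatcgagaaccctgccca
Mthfd2: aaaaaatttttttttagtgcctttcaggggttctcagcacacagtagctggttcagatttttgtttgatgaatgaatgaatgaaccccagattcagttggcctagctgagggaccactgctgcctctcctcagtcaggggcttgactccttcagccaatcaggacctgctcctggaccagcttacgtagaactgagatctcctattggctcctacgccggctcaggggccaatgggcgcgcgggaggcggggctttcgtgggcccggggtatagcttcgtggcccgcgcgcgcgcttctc
The Asns match, TGATGAAA, begins 23 bases before the start, and the Chac1 match is on the opposite strand, where the window reads TTGCATCA. A match describes the letters only, and no match in Phgdh or Mthfd2 says only that these letters are not in this window.

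Of 25 measured genes of the serine, asparagine and ATF4 target list, 9 rose, 2 fell and 14 were not called, against 1.7% of 18193 genes rising and 4.73% falling at 1 probe set per gene. The same list held 18 genes with one sign, against 54.3% of all genes. Median changes were 0.22 for the mean of the lines, and 0.23, 0.09 and 0.23 for ARG, GLY and AC5, against 0.01 over all genes in the mean, and 0.24 and 0.33 within replicates 1 to 3 and 4 to 6. In those sets 4 and 2 members rose. Beyond the genes above, the amino acid transporter Slc7a5 rose by 0.92 ± 0.19 (adjusted p = 0.00318), with 0.99, 0.44 and 1.33 in ARG, GLY and AC5. Chac1, which breaks down glutathione, rose by 0.80 ± 0.17, the pseudokinase Trib3 by 0.48 ± 0.12 and the stress protein Nupr1 by 0.41 ± 0.11. Atf5, a transcription factor related to ATF4, rose by 1.05 ± 0.24 (adjusted p = 0.00764), with ratios of 0.848, 1.02 and 1.25 in NTG, 1.40, 2.15 and 4.56 in ARG, 1.04, 1.36 and 2.06 in GLY and 1.12, 2.70 and 7.06 in AC5. Its groups overlapped, with 14 of 18 transgenic hearts above the highest NTG heart. The 2 that fell, Vldlr, a lipoprotein receptor, and Stc2, a secreted glycoprotein, changed by -0.45 ± 0.12 and -0.24 ± 0.06. Gars and Sars, which charge glycine and serine onto their transfer RNAs, were named after their values were seen and rose by 0.50 ± 0.11 and 0.52 ± 0.11.

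Of the other leading rises, Mt2, a metallothionein that binds zinc, had ratios of 0.813, 0.971 and 1.22 in NTG, 2.19, 3.46 and 5.88 in ARG, 1.07, 2.02 and 3.09 in GLY and 1.19, 1.39 and 3.07 in AC5 and rose by 1.16 ± 0.21 (adjusted p = 0.000735), with 1.84 ± 0.25 in ARG, 0.98 ± 0.25 in GLY and 0.67 ± 0.25 in AC5. Its order was ARG above GLY above AC5, and 16 of 18 transgenic hearts lay above the highest NTG heart. Cblb, a ubiquitin ligase, rose in each line on its own, by 0.99 ± 0.11 in ARG, 0.53 ± 0.11 in GLY and 0.62 ± 0.11 in AC5 at probe set 1458469_at, while its other 2 probe sets were not called. Nbeal1 rose by 0.73 ± 0.13 at 1 of 4 probe sets, and Heg1, an endothelial and heart receptor, by 0.57 ± 0.11, with the 3 lines at 0.55, 0.68 and 0.49 (F test adjusted p = 0.693). Hadhb, the beta subunit of the mitochondrial trifunctional protein, is listed among the rises for probe set 1442732_at (0.67 ± 0.12), but its other 2 probe sets fell (-0.60 ± 0.07 at 1426522_at), so its direction depends on the probe set.

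Genes that break down the branched-chain amino acids leucine, isoleucine and valine mostly fell in the mean of the 3 lines. Of 17 measured, 14 fell, none rose and 3 were not called, against 4.73% of all genes falling. On its own ARG gave 14 falls (against 7.1% of all genes), GLY 12 (against 4.12%) and AC5 2 (against 0.11%). Median changes were -0.46 for the mean of the lines, and -0.64, -0.56 and -0.25 for ARG, GLY and AC5. The medians within replicates 1 to 3 and 4 to 6 were -0.61 and -0.36, with 11 and 4 genes called. Bckdha, a subunit of the branched-chain ketoacid dehydrogenase that commits these amino acids to oxidation, had ratios of 0.915, 1.11 and 1.17 in NTG, 0.407, 0.454 and 0.707 in ARG, 0.384, 0.652 and 0.683 in GLY and 0.573, 0.709 and 0.812 in AC5. None of the 18 transgenic hearts overlapped the NTG hearts, and the mean change was -0.88 ± 0.11 (adjusted p = 9.41e-06), 1.84-fold lower, with -1.16 ± 0.13 in ARG, -0.86 ± 0.13 in GLY and -0.62 ± 0.13 in AC5. Ivd, isovaleryl-CoA dehydrogenase of the leucine branch, had ratios of 0.986, 1.05 and 1.14 in NTG, 0.386, 0.459 and 0.644 in ARG, 0.524, 0.574 and 0.673 in GLY and 0.680, 0.771 and 0.794 in AC5 (probe set 1418238_at), again without overlap. Its mean change was -0.83 ± 0.08 (adjusted p = 2.09e-07), with -1.15 ± 0.09 in ARG, -0.85 ± 0.09 in GLY and -0.50 ± 0.09 in AC5, and the lines differed (F test adjusted p = 0.0002). Pccb, a subunit of propionyl-CoA carboxylase, fell by 0.66, Mmut, methylmalonyl-CoA mutase, by 0.58 and the aminotransferase Bcat2, which starts the pathway, by 0.55. In 13 of the 14 that fell the order by size was ARG, GLY, AC5. The geometric mean of the 17 ratios ran from 0.943 to 1.08 in NTG hearts, 0.779 to 0.945 in AC5, 0.599 to 0.793 in GLY and 0.614 to 0.725 in ARG, so that 17 of 18 transgenic hearts lay below the lowest NTG heart.

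**Figure D2:**
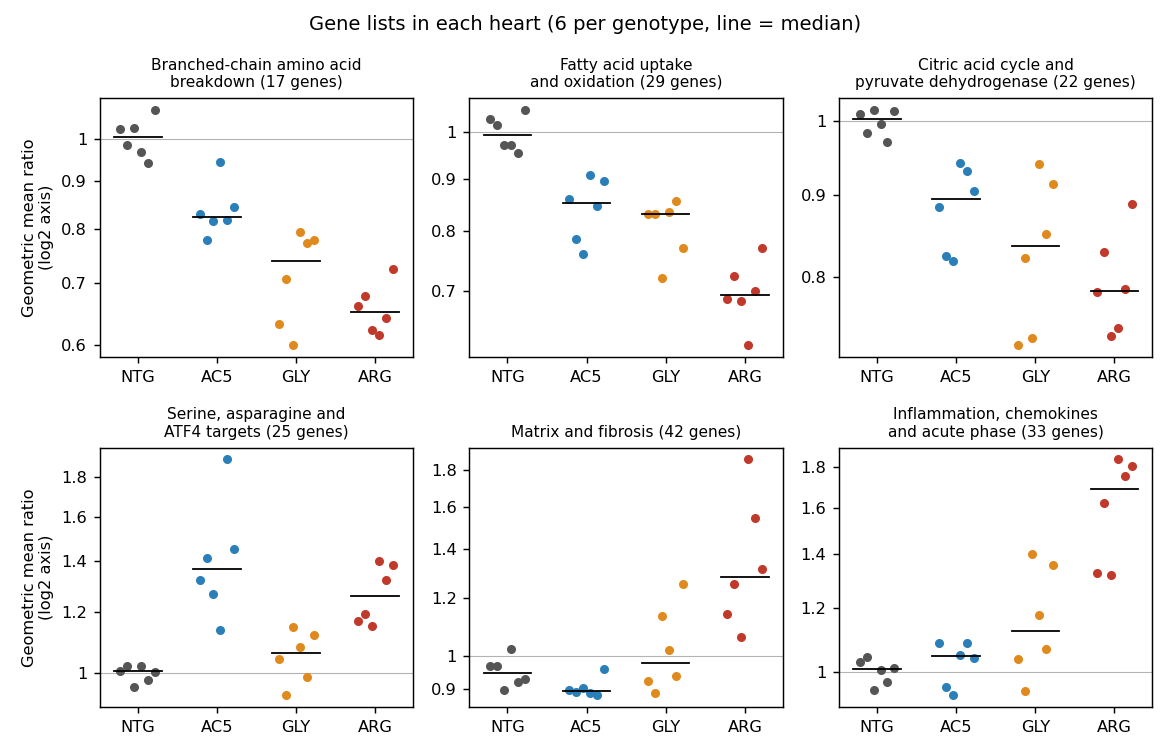
Geometric mean ratio of each gene list in each heart (points, y axis with log2 spacing) by genotype (x axis, 6 hearts each, line at the median) for 6 lists. All 18 transgenic hearts lie below the lowest NTG heart for the fatty acid and citric acid cycle lists, while for the matrix and fibrosis list all 6 ARG hearts and no AC5 heart lie above the highest NTG heart.

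Fatty acid genes followed the same direction, with 19 of 29 measured genes falling and 10 not called, against 4.73% of all genes falling. Their medians were -0.32 for the mean of the lines, and -0.56, -0.35 and -0.26 for ARG, GLY and AC5, and -0.38 and -0.31 within the sets, with 12 and 7 called. Of the 29, 26 had one sign, all downward, and in 9 the transgenic and NTG hearts did not overlap, against 0.34% of all probe sets. Hadh, which oxidises medium and short hydroxyacyl-CoA, had ratios of 0.942, 1.01 and 1.11 in NTG, 0.450, 0.542 and 0.565 in ARG, 0.575, 0.680 and 0.789 in GLY and 0.663, 0.753 and 0.848 in AC5, without overlap, and fell by 0.65 (adjusted p = 2.56e-06), with -0.95 ± 0.09 in ARG, -0.58 ± 0.09 in GLY and -0.43 ± 0.09 in AC5. The acyl-CoA dehydrogenases Acadvl, Acadl, Acadm and Acads, for very long to short chains, changed by -0.48 ± 0.06, -0.32 ± 0.06, -0.54 ± 0.11 and -0.63 ± 0.11, none with overlap. Hadha, the alpha subunit of the trifunctional protein, changed by -0.49 ± 0.07 and Cpt2, which frees acyl-CoA inside the mitochondrion, by -0.49 ± 0.08. Acot1, an acyl-CoA thioesterase, had the largest change of the list, -0.82 ± 0.15 (adjusted p = 0.000813). Its change was largest in ARG, with -1.52 ± 0.18 in ARG, -0.48 ± 0.18 in GLY and -0.45 ± 0.18 in AC5, and without the ARG line its change was -0.47 (adjusted p = 0.124).

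In the citric acid cycle and pyruvate dehydrogenase list, 11 of 22 genes fell and none rose, and 21 had one sign. Of all genes 4.73% fell and 1.7% rose. Medians were -0.31 for the mean of the lines, and -0.38, -0.29 and -0.18 for ARG, GLY and AC5, and -0.38 and -0.17 within the sets, with 8 and 1 called. Cs, citrate synthase, changed by -0.58 ± 0.08 (adjusted p = 5.78e-05) without overlap, with -0.67, -0.66 and -0.41 in ARG, GLY and AC5. Suclg2, a succinate-CoA ligase subunit, changed by -0.70 ± 0.12 (adjusted p = 0.000639), and Sdha and Pdha1, of succinate and pyruvate dehydrogenase, by -0.43 ± 0.09 and -0.55 ± 0.13. The F test among the lines called 1 of these 22 genes, near its share over all probe sets (4.76%). Of 50 genes of the respiratory chain and ATP synthase, 8 fell, 1 rose and 41 were not called, with a median of -0.07. Ndufa10, of complex I, fell in each line, with -0.90 ± 0.08 in ARG, -0.50 ± 0.08 in GLY and -0.37 ± 0.08 in AC5 at probe set 1418068_at, without overlap, while its other probe set was not called. Ndufs1, Ndufs4 and Ndufb8, also of complex I, changed by -0.53 ± 0.11, -0.45 ± 0.08 and -0.40 ± 0.07, and Cox6a1, the general form of a complex IV subunit, rose by 0.33 ± 0.07. Among PPAR, ERR and mitochondrial coactivator genes, which regulate these fuels, 2 of 19 fell (Rxrg by 0.28, Gabpa by 0.52) and none rose. Gabpa fell at 1 of its 2 probe sets. It lost its call when any 1 of NTG replicates 1, 2, 3, 5 and 6, AC5 replicates 2, 5 and 6 or ARG replicates 1, 3 and 5 was left out. In bulk heart RNA, fewer cells of a type and less RNA per cell cannot be told apart.

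Only 33 probe sets, 0.0733% of those tested, were called with one sign in ARG, GLY and AC5 each on its own, 5 rises (0.0111%) and 28 falls (0.0622%). On its own AC5 gave 64 calls (0.142%) against 4355 in ARG (9.67%) and 2286 in GLY (5.08%). They named 25 falling genes and 3 rising genes (Cblb, Aldh18a1 and Tmem248), and 23 of the 33 had no overlap between transgenic and NTG hearts. Among them were Bckdha, Ivd at both probe sets, Hadh, Acat1 (acetoacetyl-CoA thiolase), Idh2 (mitochondrial isocitrate dehydrogenase) and Abat (which breaks down GABA). These genes were taken from the whole set after their values were seen. Ldhd, the mitochondrial D-lactate dehydrogenase, had ratios of 0.983, 1.03 and 1.07 in NTG, 0.426, 0.494 and 0.624 in ARG, 0.488, 0.529 and 0.802 in GLY and 0.657, 0.706 and 0.768 in AC5 and changed by -0.81 ± 0.08 (adjusted p = 5.29e-07). Acat1 changed by -0.95 ± 0.09 (adjusted p = 2.42e-07), with -1.23 ± 0.11 in ARG, -1.07 ± 0.11 in GLY and -0.56 ± 0.11 in AC5, and no transgenic heart overlapped the NTG hearts. Per3, a clock gene, changed by -0.81 ± 0.08 (adjusted p = 2.68e-07) without overlap, and Trap1, a mitochondrial chaperone, by -0.64 ± 0.06. The count fell to between 4 and 21 when any 1 of NTG replicates 1, 2, 3, 5 and 6, AC5 replicates 2, 3, 5 and 6 or GLY replicates 4 and 5 was left out. It was 2 and 0 within the 2 sets, 144 after quantile normalization and 88 without the 3 arrays of low weight. At an unadjusted p under 0.05, 1389 probe sets met the rule, and no probe set was called up in one line and down in another (85 at an unadjusted p under 0.05).

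Hnrnpa2b1, Hnrnpdl, Neat1 and Fubp1 were among the 10 leading shared falls. Hnrnpa2b1, a nuclear protein that binds and sorts messenger RNA, had ratios of 0.654, 0.886 and 1.15 in NTG, 0.234, 0.252 and 0.423 in ARG, 0.103, 0.284 and 0.626 in GLY and 0.352, 0.428 and 0.644 in AC5, without overlap (probe set 1433830_at). Its mean change was -1.47 ± 0.22 (adjusted p = 0.000126), with -1.67 ± 0.27 in ARG, -1.76 ± 0.27 in GLY and -0.98 ± 0.27 in AC5, and all 4 of its probe sets fell. Hnrnpdl, a relative of it, changed by -1.18 ± 0.20 (adjusted p = 0.000423) and fell at 5 of 7 probe sets. Fubp1, which binds single-stranded regulatory DNA and RNA, changed by -0.80 ± 0.18 (adjusted p = 0.00562) at 1 of 4 probe sets and was not called after quantile normalization, with -1.14 and -0.46 in replicates 1 to 3 and 4 to 6. Neat1, the long noncoding RNA that builds nuclear paraspeckles, changed by -1.51 ± 0.26 (adjusted p = 0.000473) at 1 of 2 probe sets, with -1.64 ± 0.31 in ARG, -2.04 ± 0.31 in GLY and -0.85 ± 0.31 in AC5. Its ratios were 0.330, 0.840 and 1.10 in NTG, 0.157, 0.255 and 0.323 in ARG, 0.0636, 0.200 and 0.385 in GLY and 0.269, 0.450 and 0.607 in AC5, and NTG replicate 4 held the lowest NTG value. GLY replicates 1 and 3 were among the arrays of low weight, and without the 3 such arrays Hnrnpa2b1, Neat1 and Mtm1 changed by -1.29, -1.36 and -1.35.

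The remaining leading falls were of mixed kind. Ndufab1, the mitochondrial acyl carrier protein, had ratios of 0.637, 1.04 and 1.31 in NTG, 0.230, 0.303 and 0.363 in ARG, 0.209, 0.360 and 0.460 in GLY and 0.348, 0.504 and 0.747 in AC5 and fell in each line, with -1.74 ± 0.20 in ARG, -1.59 ± 0.20 in GLY and -0.99 ± 0.20 in AC5, but at 1 of 5 probe sets. Mtm1, a lipid phosphatase of muscle, changed by -1.47 ± 0.19 (adjusted p = 1.55e-05) at 2 of 3 probe sets, with -1.76 ± 0.23 in ARG, -1.81 ± 0.23 in GLY and -0.83 ± 0.23 in AC5. Fabp4, a fatty acid binding protein of capillary endothelium and fat, changed by -1.43 ± 0.24 (adjusted p = 0.000395) at 2 of 4 probe sets. Iigp1, an interferon-inducible GTPase, changed by -1.03 ± 0.22 (adjusted p = 0.00436) at both probe sets, and Nfkbiz, a nuclear inhibitor of NF-kappaB, by -0.93 ± 0.20 (adjusted p = 0.00548) at 1 of 3. Hspa8, the constitutive cognate heat shock protein, was called at 1 of 4 probe sets (-1.23 ± 0.34, adjusted p = 0.0274) and lost the call without any 1 of NTG replicates 2, 3, 4 and 5, or without the ARG line (adjusted p = 0.115). Its changes were -1.49 ± 0.41 in ARG, -1.17 ± 0.41 in GLY and -1.01 ± 0.41 in AC5 (limma adjusted p = 0.0181, 0.099 and 0.541). The highest AC5 heart, at 2.39, lay above the highest NTG heart, at 1.46. Within replicates 1 to 3 and 4 to 6 the changes were -1.997 and -0.46 for Hspa8, -1.93 and -0.94 for Fabp4 and -1.28 and -0.58 for Nfkbiz.

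**Figure D3:**
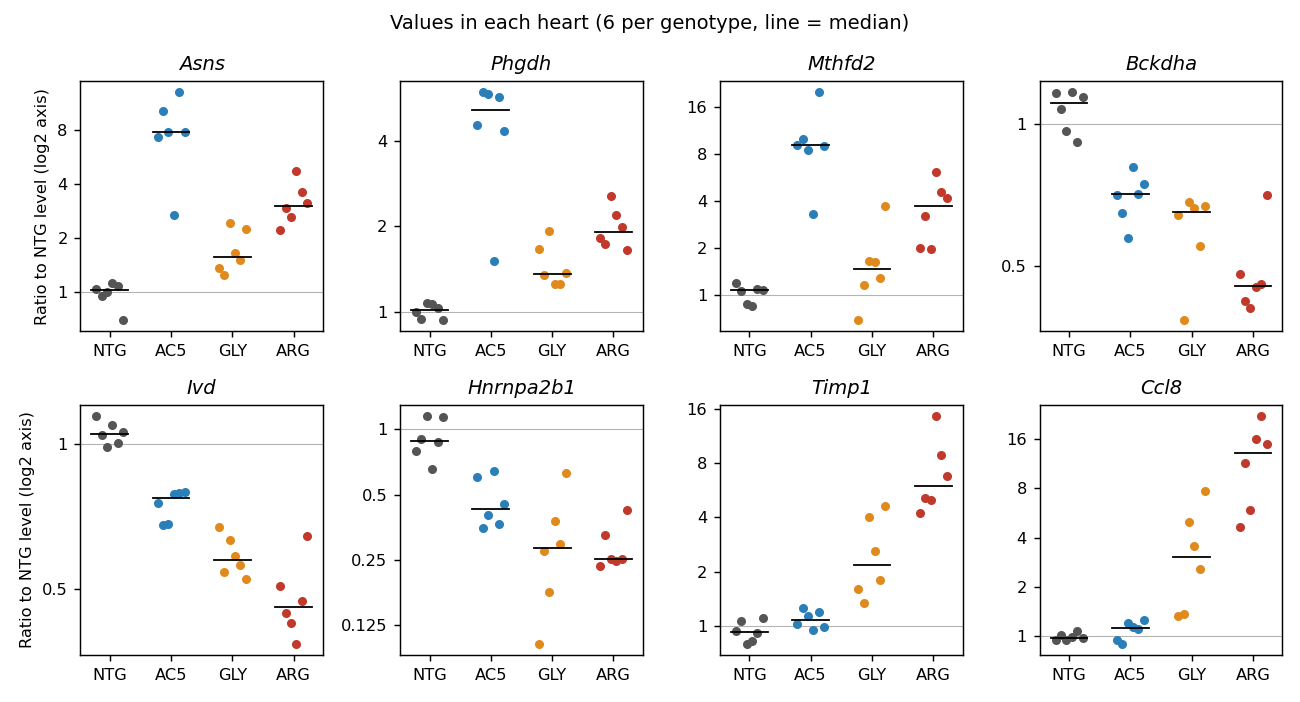
Ratio to the NTG level in each heart (points, y axis with log2 spacing) by genotype (x axis, 6 hearts each, line at the median) for 8 genes. For Asns, Phgdh and Mthfd2 the AC5 median is the highest, for Bckdha, Ivd and Hnrnpa2b1 all 18 transgenic hearts lie below the NTG hearts, and for Timp1 and Ccl8 the medians climb from AC5 to GLY to ARG.

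In 4 lists of heart muscle genes falls and no rises were called, beside 4.73% of all genes falling and 1.7% rising, while none of 11 cardiomyocyte and 11 skeletal muscle markers was called. Of the 22 genes for ion channels and gap junctions, 5 fell and none rose. They were the potassium channel genes Kcnip2 (-0.51 ± 0.08), Kcnv2 (-0.55 ± 0.09) and Kcnd3 (-0.39 ± 0.09), the sulfonylurea receptor Abcc9 (-0.48 ± 0.11) and the connexin Gjc1 (-0.29 ± 0.06), each with the order ARG, GLY, AC5. Kcnv2 ratios were 0.768, 1.04 and 1.20 in NTG, 0.440, 0.578 and 0.733 in ARG, 0.588, 0.732 and 0.817 in GLY and 0.702, 0.775 and 0.962 in AC5, and 13 of 18 transgenic hearts lay below the lowest NTG heart. Of 28 sarcomere and Z disc genes, 5 fell and none rose. Tmod4, which caps actin filaments, had ratios of 0.997, 1.04 and 1.09 in NTG, 0.162, 0.296 and 0.375 in ARG, 0.305, 0.659 and 1.11 in GLY and 0.545, 0.689 and 0.964 in AC5 and changed by -1.09 ± 0.19 (adjusted p = 0.000631), with -1.89 ± 0.23 in ARG, -0.81 ± 0.23 in GLY and -0.57 ± 0.23 in AC5. Without the ARG line its change was -0.69 (adjusted p = 0.074). Mylk4, a muscle kinase, changed by -1.01 ± 0.15, Tcap, the titin cap, by -0.46 ± 0.08, and Nexn, a Z disc protein, by -0.74 ± 0.18 without overlap. Of 28 calcium handling genes 4 fell, the channel subunit Cacna2d1 (-0.92 ± 0.21, adjusted p = 0.00811) and the calcium-binding proteins Hrc, S100a1 and Casq2 (-0.29, -0.27 and -0.20). Cacna2d1 fell at 2 of its 5 probe sets. Of 20 cardiac transcription factors 4 fell, Hopx, Mef2c, Mef2a and Irx4 (-0.34, -0.40, -0.42 and -0.17), and Mef2a lost its call without any 1 of NTG replicates 1, 2, 3, 5 and 6. Mef2a fell at 3 of its 6 probe sets.

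Among 21 fetal and hypertrophy genes 4 rose, 2 fell and 15 were not called, beside 1.7% of all genes rising and 4.73% falling. Acta1, skeletal alpha-actin, had ratios of 0.602, 0.875 and 1.13 in NTG, 0.0940, 0.153 and 0.239 in ARG, 0.0721, 0.223 and 0.660 in GLY and 0.473, 0.809 and 1.15 in AC5 and changed by -1.48 ± 0.30 (adjusted p = 0.00261), with -2.47 ± 0.36 in ARG, -1.83 ± 0.36 in GLY and -0.14 ± 0.36 in AC5, and the lines differed (adjusted p = 0.000454). The AC5 hearts overlapped the NTG hearts, and without the ARG line the adjusted p was 0.109. After quantile normalization its change was -0.92 (adjusted p = 0.048). Nppb, the brain natriuretic peptide, rose by 0.52 ± 0.13, with 0.91, 0.26 and 0.38 in ARG, GLY and AC5. Uchl1, a deubiquitinase, rose by 1.22 ± 0.24 and Nmrk2, a nicotinamide riboside kinase of muscle, by 0.94 ± 0.25, both in the order ARG, GLY, AC5. Fhl1 rose in the mean (0.60 ± 0.12), but its AC5 change was -0.00. Ttn, the giant sarcomere spring, fell at 1 of 6 probe sets.

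Of 45 beta-adrenergic and cyclic AMP genes, the pathway the transgenes enter, 4 rose, 1 fell and 40 were not called. Over all genes 1.7% rose and 4.73% fell. Grk5, a kinase that desensitises the receptor, rose by 0.79 ± 0.13 (adjusted p = 0.000336), with 1.29, 0.79 and 0.28 in ARG, GLY and AC5. Pde4d and Pde3b, which break down cyclic AMP, rose by 0.54 ± 0.08 (adjusted p = 0.000159) and 0.39 ± 0.11 (adjusted p = 0.0361), and Rgs2, which quenches G protein signals, by 0.66 ± 0.12 (adjusted p = 0.000938). Pkia, the inhibitor of protein kinase A, had ratios of 0.724, 0.977 and 1.40 in NTG, 0.318, 0.530 and 0.671 in ARG, 0.206, 0.601 and 0.818 in GLY and 0.550, 0.843 and 0.979 in AC5 and changed by -0.81 ± 0.21 (adjusted p = 0.0219). It lost the call without any 1 of NTG replicates 1, 3 and 6, without the ARG or GLY line, and after quantile normalization, and stood at -0.43 in replicates 4 to 6. Of 25 immediate early and CREB target genes 1 rose and 1 fell, counts near the shares over all genes. The rise was of Myc, a growth transcription factor, at 0.49 ± 0.12 (adjusted p = 0.0126), with 0.83, 0.34 and 0.29 in ARG, GLY and AC5, and its adjusted p was 0.23 without the ARG line. The fall was of Jun (-0.32 ± 0.08), which stood at 0.01 in GLY.

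Stress genes of the endoplasmic reticulum rose in 5 of 23 cases and none fell, with list medians of 0.12 for the mean of the lines, and 0.22, -0.04 and 0.25 for ARG, GLY and AC5. Over all genes 1.7% rose and 4.73% fell in the mean of the lines. Sdf2l1, a chaperone cofactor, had ratios of 0.954, 1.07 and 1.10 in NTG, 2.24, 2.54 and 4.46 in ARG, 1.11, 1.22 and 1.66 in GLY and 1.00, 1.47 and 3.36 in AC5 and rose by 0.81 ± 0.16 (adjusted p = 0.00255), with 1.42 ± 0.20 in ARG, 0.31 ± 0.20 in GLY and 0.70 ± 0.20 in AC5. Creld2, Manf, Pdia4 and Edem1, of protein folding and disposal, rose by 0.76 ± 0.17, 0.67 ± 0.17, 0.46 ± 0.10 and 0.57 ± 0.16. Manf stood at 0.94, 0.15 and 0.91 in ARG, GLY and AC5, with GLY lowest (F test adjusted p = 0.0278). Of 22 cytosolic and mitochondrial heat shock genes 4 fell, among them the mitochondrial chaperones Hspd1 (-0.60 ± 0.12, adjusted p = 0.00289) and Hspa9 (-0.41 ± 0.10). Of 24 metallothionein and antioxidant genes 6 rose and 1 fell. Gclm, a subunit of the enzyme that limits glutathione synthesis, rose by 0.46 ± 0.09, with line changes of 0.52, 0.44 and 0.42 (F test adjusted p = 0.848), and Hmox1, heme oxygenase, by 0.36 ± 0.09. Gsta3, a glutathione transferase, was the fall (-0.34 ± 0.08).

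Genes of inflammation and matrix had their largest median changes in ARG. Their counts stand beside 1.7% of all genes rising and 4.73% falling in the mean of the lines. Of 33 genes of inflammation, chemokines and the acute phase 8 rose, 7 of them with one sign, and none fell, with medians of 0.18 for the mean of the lines, and 0.38, 0.10 and 0.04 for ARG, GLY and AC5. Ccl8, a chemokine for monocytes, had ratios of 0.954, 0.983 and 1.07 in NTG, 4.69, 13.2 and 22.1 in ARG, 1.34, 3.06 and 7.75 in GLY and 0.905, 1.13 and 1.27 in AC5. All ARG and GLY hearts lay above the highest NTG heart, while the AC5 hearts straddled the NTG range, 4 above it and 2 below. Its mean change was 1.72 ± 0.28 (adjusted p = 0.000316), with 3.46 ± 0.34 in ARG, 1.57 ± 0.34 in GLY and 0.13 ± 0.34 in AC5, and without the ARG line 0.85 (adjusted p = 0.15). Lgals3, galectin-3, stood at 2.75, 1.49 and 0.19 in ARG, GLY and AC5, Cd44, the hyaluronan receptor, at 2.31, 0.98 and 0.25, and the acute phase gene Serpina3n at 2.10, 0.84 and 0.10. Of 42 matrix and fibrosis genes 3 rose, 2 of them with one sign, and none fell. Timp1, an inhibitor of matrix proteases, had ratios of 0.801, 0.926 and 1.12 in NTG, 4.23, 5.96 and 14.5 in ARG, 1.34, 2.19 and 4.62 in GLY and 0.950, 1.09 and 1.26 in AC5 and a mean of 1.47 ± 0.21 (adjusted p = 7.21e-05), with 2.85 ± 0.26 in ARG, 1.35 ± 0.26 in GLY and 0.22 ± 0.26 in AC5, and its adjusted p was 0.068 without the ARG line. The medians of the matrix list were 0.15 for the mean of the lines, and 0.45, 0.12 and -0.09 for ARG, GLY and AC5, and 10 of the 42 had one sign. The F test among the lines called 22 of the 42 and 15 of the 33, against 4.76% of all probe sets. Macrophage markers rose with these genes in ARG but not in GLY. Of 16 such markers 2 rose in the mean (Adgre1 by 0.38, Fcgr3 by 0.45). In single lines 9 rose in ARG (against 4.24% of all genes), 2 fell and none rose in GLY (against 4.12% falling), and none was called in AC5. The medians of the markers were 0.685, 0.06 and -0.03 in ARG, GLY and AC5. Their geometric mean ran from 0.948 to 1.07 in NTG, 1.15 to 1.78 in ARG, 0.778 to 1.34 in GLY and 0.866 to 1.11 in AC5. Of 12 fibroblast markers 6 rose and 1 fell in ARG (against 7.1% of all genes falling), with a geometric mean of 0.907 to 0.993 in NTG, 1.01 to 1.55 in ARG, 0.775 to 1.37 in GLY and 0.766 to 0.869 in AC5. The part of these markers in the rises was not tested.

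In the mean of the lines 1.7% of all genes rose and 4.73% fell. Of 14 endothelial markers 5 fell and none rose, with a median of -0.21, and their geometric mean ran from 0.905 to 1.06 in NTG, 0.633 to 0.858 in ARG, 0.657 to 0.934 in GLY and 0.770 to 0.999 in AC5. Among them were Emcn, endomucin of capillaries (-0.28 ± 0.07), Egfl7, a secreted endothelial factor (-0.38 ± 0.10), and Fabp4, so the fall of Fabp4 stands beside theirs, and their part in it was not tested. In the mean of the lines 1 of 12 fibroblast markers fell, Gsn, an actin-severing protein (-0.40 ± 0.12, adjusted p = 0.0386), which lost its call without any 1 of NTG replicates 1, 2, 3, 4 and 6, AC5 replicates 1, 2 and 3 or ARG replicate 2, and stood at -0.20 in replicates 4 to 6. Gsn fell at 2 of its 6 probe sets. Of 10 lymphocyte markers 1 rose, Cd79b (0.25 ± 0.07, adjusted p = 0.0402), which lost its call without any 1 of the 6 NTG arrays, AC5 replicates 2, 4 and 5 or ARG replicates 3 and 4. No marker was called of smooth muscle and pericytes (10), adipocytes (8), red blood cells (4), nerve and Schwann cells (8), atrium (9), skeletal muscle (11) or lung and thymus (10). The 4 measured sex-linked genes had one sign, with a median of -0.27, and none was called.

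The remaining lists gave few calls, beside 1.7% of all genes rising and 4.73% falling. A single call in a list of this size lies near those shares. Of 18 clock genes 1 rose and 1 fell, with Per3 counted by another probe set than the one above (-0.14 ± 0.08), which was not called. Nfil3, a repressor in clock output, had ratios of 0.922, 1.03 and 1.11 in NTG, 2.24, 2.91 and 3.85 in ARG, 1.21, 1.60 and 2.13 in GLY and 1.03, 1.10 and 2.02 in AC5 and rose by 0.78 ± 0.12 (adjusted p = 0.000228), with 1.49 ± 0.15 in ARG, 0.62 ± 0.15 in GLY and 0.24 ± 0.15 in AC5, and without the ARG line its adjusted p was 0.0906. Tef, an activator of clock output, fell without overlap (-0.49 ± 0.08, adjusted p = 0.000482). Of 20 growth arrest and DNA damage genes 2 rose and 2 fell. Rad51b, of recombination repair, had the largest mean rise of any named gene, 2.70 ± 0.25 (adjusted p = 2.42e-07), with ratios of 0.804, 1.03 and 1.29 in NTG, 17.3, 19.7 and 22.9 in ARG, 3.03, 12.0 and 24.7 in GLY and 1.21, 1.38 and 1.70 in AC5 at probe set 1421430_at. It rose at 1 of 2 probe sets, with 4.30 ± 0.31 in ARG, 3.34 ± 0.31 in GLY and 0.48 ± 0.31 in AC5, and the lines differed (adjusted p = 6.59e-08). The other 3 were Cdkn1a, a cell cycle inhibitor (0.68 ± 0.15), Gadd45a (-0.46 ± 0.08) and Gadd45g (-0.33 ± 0.08). Of 21 genes of glucose use 1 rose and 2 fell, Pgam1, of glycolysis (0.50 ± 0.11, adjusted p = 0.00446), Pfkm (-0.22) and Hk2 (-0.21). Of 16 glucocorticoid-responsive genes Klf9 fell (-0.52 ± 0.14, adjusted p = 0.0195), which lost its call without NTG replicate 3 or 6. Klf9 fell at 2 of its 7 probe sets. Of 21 interferon-induced genes Ifi27l2a rose (0.72 ± 0.14, adjusted p = 0.0018), and of 20 ubiquitin and atrophy genes Cavin4, a caveolar protein of muscle, fell (-0.40 ± 0.07, adjusted p = 0.0004).

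The order of size was ARG, then GLY, then AC5 for 1462 of the 2490 called probe sets with one sign (58.7%), and GLY, then ARG, then AC5 for 606 (24.3%). Among all probe sets with one sign, called or not, these shares were 26.4% and 23.1%. AC5 came first at 55 probe sets ahead of ARG and GLY in that order, and at 32 ahead of GLY and ARG. The median size of change in the 2490 was 0.50 in ARG, 0.39 in GLY and 0.23 in AC5 on the log2 scale, against 0.10, 0.10 and 0.07 over all probe sets. A called mean favours genes with a large change in any line, so the sizes and shares are a description. The F test among ARG, GLY and AC5, which uses no NTG array, called 2143 probe sets (4.76%) and 766 of the 2490 (30.8%), so for most shared changes no difference among the lines was found. ARG and AC5 differed at 854 of the 2490, with ARG larger at 843 of them, and at 2220 of all probe sets (4.93%). ARG and GLY differed at 218 of the 2490, with ARG larger at 216, and at 678 of all (1.51%). GLY and AC5 differed at 117 of the 2490, with GLY larger at 105, and at 312 of all (0.693%). AC5 was larger than both receptor lines at 9 probe sets, all rises: Asns at 2, Phgdh at 3, Mthfd2 at 2, and 1456471_x_at and 1426657_s_at, which carry no single gene symbol.

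**Figure D4:**
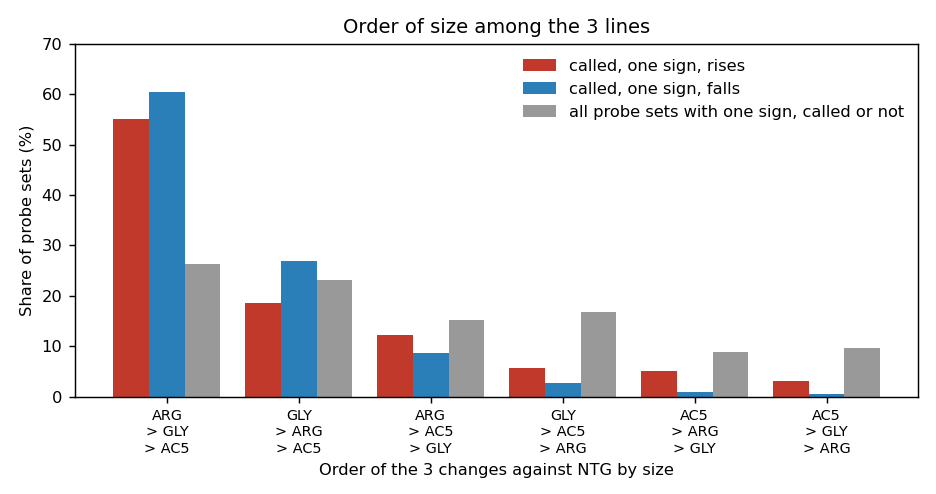
Share of probe sets (y axis, percent) with each order of the 3 changes by size (x axis) among the 795 called rises and the 1695 called falls with one sign, and among all probe sets with one sign, called or not (grey). ARG, GLY, AC5 is the most frequent order in all 3 groups, at 55.2%, 60.4% and 26.4%.

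Leaving out ARG removed more of the shared calls than leaving out either other line. With ARG left out of the mean, 903 probe sets were called, 888 of them among the 2490 (35.7%), while leaving out GLY kept 1751 (70.3%) and leaving out AC5 kept 2445 (98.2%). Of 45 called results for named genes, 18 were not called without the ARG line, 6 without the GLY line and 0 without the AC5 line. Of the 2490, 2186 were called in ARG on its own, 1558 in GLY and 56 in AC5. Of the 61 called probe sets without one sign, AC5 was opposite to both receptor lines at 58, and at 2 of these the mean had the sign of AC5. Bex1, a small adaptor protein, stood at -2.99, -1.96 and 0.59 in ARG, GLY and AC5 (-1.46 ± 0.25, adjusted p = 0.000639 in the mean) and Aqp4, a water channel, at 1.12, 1.04 and -0.02. Zbtb16, a transcription factor, was among the few with GLY opposite, at 1.34, -0.15 and 0.93. These 3 were named after their values were seen.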

How the data were processed

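Heart RNA of 24 mice, 6 per genotype, was hybridised to 1 Affymetrix array each. RMA is named in the submitters' processing notes, with no version. The authors deposited ratios on a linear scale, near 1 in NTG hearts. Scale and division by the NTG level were read from the values, since no label states them. They keep no brightness, so dim probe sets could not be filtered. Of 45101 probe sets, 64 Affymetrix controls were left out. Symbols came from the platform annotation, and Entrez numbers matched for 18032 of 18193 genes.

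Ratios were log2 transformed and fitted with limma 3.58.1 (R 4.3.3), with 1 mean per genotype. The contrast was the equal-weight mean of ARG, GLY and AC5 minus NTG, with Benjamini-Hochberg adjustment over 45037 probe sets and a threshold of 0.05. A moderated F test compared the lines without NTG arrays. The fit was tested on simulated data. The p-values rest on 1 spread per probe set, pooled over the 4 genotypes of 6 biological replicates (20 residual degrees of freedom). This spread was moderated by limma with 6.59 prior degrees of freedom. Pooling treats the genotypes as equally variable, while their measured spreads differed. The mean SD between replicates on the log2 scale was lowest for NTG hearts (0.143) and highest for GLY hearts (0.221). With weights by genotype 4605 probe sets were called, against 2551 in the main fit.

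Genes were counted in lists by 1 probe set each, chosen without regard to values (by the suffix of its ID, _at before _a_at, _s_at and _x_at). Named genes are the 10 leading rises and 10 leading falls with one sign, ranked by the smallest of the 3 line changes, and, for each list, the member with the largest mean change among those called with one sign, plus Adcy5 and Myh6. Other genes were picked after their values were seen. Members and gene lists were chosen with earlier results of these data known. Promoters come from RefSeq (GRCm38.p6). Alternatives were quantile or median centring, weights, the replicate number or set as a term, each set alone, and each array or line left out. Leaving out 3 arrays of low weight was added after the data were seen.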

Additional observations from a re-analysis of the deposited data

Results flagged for a closer look

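Among the named genes 1 heart stood far from the other 5 of its genotype in the following cases. The gap was judged on the log2 scale, and values are given as ratios to NTG. Chance gives such a gap in about 5% of groups of 6. With 46 named genes in 4 genotypes looked at, several such gaps are due by chance alone. AC5 replicate 4 was low for Asns at both probe sets, at 3.868 against 13.1 to 24.03 in the other AC5 hearts (1433966_x_at) and 2.689 against 7.38 to 13.03 (1451095_at), and for Phgdh, at 1.508 against 4.34 to 5.91. Asns stood at 0.7034 in NTG replicate 6, against 0.954 to 1.13. AC5 replicate 5 was high for Nfil3, at 2.024 against 1.03 to 1.19, and for Pgam1, at 2.016 against 1.08 to 1.28. Pgam1 stood at 1.18 in ARG replicate 1, against 1.64 to 1.99. Heg1 stood at 1.72 in GLY replicate 5, against 1.26 to 1.39. Neat1 stood at 0.33 in NTG replicate 4, against 0.808 to 1.10. Bckdha stood at 0.7072 in ARG replicate 6, against 0.407 to 0.480, and Ifi27l2a at 3.656 in ARG replicate 4, against 1.83 to 2.29.

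The 3 lines differed from one another in the moderated F test of limma, which uses no NTG array at the following named genes. Adjusted p-values were 3.68e-05 (1433966_x_at) and 2.3e-05 (1451095_at) for Asns, 0.000117 for Phgdh, 9.19e-05 for Mthfd2 and 0.0308 for Aldh18a1, where the AC5 change was the largest. With ARG largest they were 6.59e-08 for Rad51b, 2.38e-06 for Timp1, 4.21e-06 for Ccl8, 2.81e-05 for Nfil3, 6.99e-05 for Fcgr3, 0.00235 for Ifi27l2a, 0.00264 for Sdf2l1, 0.0119 for Mt2, 0.0284 for Cblb and 0.0359 for Myc among rises. Among falls with ARG largest they were 0.0002 for Ndufa10, 0.00031 for Acot1, 0.000454 for Acta1, 0.00125 for Tmod4, 0.0303 for Kcnv2, 0.0364 for Bckdha and 0.0472 for Ndufab1. With GLY largest they were 0.0109 for Mtm1, 0.0271 for Suclg2 and 0.0115 for Klf9, all falls, and for Adcy5, highest in AC5, 0.00187.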

How the results depend on the processing

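The 2551 probe sets called in the mean of the lines kept their direction wherever an alternative tested them, except 2 that changed sign without the AC5 line, while counts moved. The alternatives reuse the arrays that gave the calls, so a kept direction is favoured by construction. Quantile normalization gave 1671 calls, 1651 with one sign and 144 in each line on its own, with 709 for the difference among the lines and 788 in the order ARG, GLY, AC5. Replicates 1 to 3 gave 862, 851, 2, 413 and 358 for these 5 counts, and replicates 4 to 6 gave 431, 422, 0, 832 and 323. Array weights gave 5137, 4913 and 271, with 2618 in that order, and weights by genotype 4605, 4429 and 202. With 1 probe set per gene the counts were 1255 and 1211, with 1218 for the difference among the lines and 762 in that order. Centring each array gave 21 in each line on its own, and leaving out the 3 arrays of low weight 88. The mean without the ARG line gave 903 calls, and without the AC5 line 4297.

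In replicates 1 to 3 the fatty acid list had 12 falls and the serine, asparagine and ATF4 list 4 rises. In replicates 4 to 6 the falls were 7 for fatty acids, 1 for the citric acid cycle and 4 for branched-chain amino acids, and the ATF4 list had 2 rises. These sets hold fewer arrays. For the other changes in count the cause was not tested. The change of the mean of the lines against NTG was also compared between the 2 sets. This difference was called at 0 probe sets by limma, with 3150 (6.99%) at an unadjusted p under 0.05. A difference between the sets in any single line was not tested.

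Leaving out 1 array at a time gave 1688 to 3002 calls, 1662 to 2934 with one sign, 4 to 43 in each line on its own, 1532 to 3253 for the difference among the lines and 1082 to 1640 in the order ARG, GLY, AC5. The lowest of the first range came without NTG replicate 3, and the highest value for the difference among the lines without GLY replicate 6. Of 45 called results for named genes, 38 stayed called without each single array, 11 under every alternative, and none changed sign.

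With the replicate number as a block, 2755 probe sets were called, 2438 of them shared, and 38 in each line on its own. The numbers do not show a pairing: 16 of 36 same-numbered correlations between groups exceeded 0.1 (median 0.0373), and 0 of 24 arrays correlated best with its own number. The number of arrays limits the precision, and without intensities the background is unknown.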
